A study of Mus musculus with 42 samples.

Results

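The genes described here are those read most often as signs of an epithelial to mesenchymal transition: the epithelial adhesion genes Cdh1 and Epcam, the mesenchymal genes Cdh2 and Vim, and the transcription factor genes Snai1, Snai2, Twist1, Zeb1 and Zeb2. A probe set was a member where the platform annotation gives it 1 gene symbol and that symbol is one of these 9. These genes are 9 of 18194 with such a probe set. They have 21 probe sets of 45265, 13 of them on the MOE430A chip (430A below) and 8 on MOE430B (430B). All 21 passed the filter on low signal.

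The RNA came from D3 mouse embryonic stem cells, a line derived from blastocysts, that were differentiated towards osteoblasts and sampled on each of days 4 to 6 and on days 8, 16, 25 and 30. Each of the 7 days has 3 replicates, and each of the 21 RNA samples was hybridised to both chips. For every sample the growth protocol lists ascorbic acid, beta-glycerophosphate and vitamin D3, while the titles carry VD3 from day 6 on and not on days 4 and 5, so that label and day change together. No arm without the supplements was analysed here. The labels call the material a clone and leave contaminating cell types undetermined. They leave unsaid whether replicates came from separate cultures. The p-values below therefore measure a spread between samples, which may not be the spread between separate cultures.

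In an epithelial to mesenchymal transition, cells give up the lateral junctions that hold a sheet together and become separate, motile cells. E-cadherin, the product of Cdh1, falls while N-cadherin, the product of Cdh2, and the intermediate filament vimentin rise. The Snail, Twist and Zeb families of transcription factors drive the switch, and Snail and Zeb proteins repress Cdh1 by binding E-box sequences in its promoter. In the embryo the transition makes mesoderm at the primitive streak, and embryoid bodies pass through a like step, after which mesoderm yields cardiac muscle and connective tissue cells while endoderm and surface epithelium keep or regain junctions.

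Among the members with a promoter sequence given, 3 are shown because they bear on how the repressors are known to act: an epithelial gene, a repressor gene and a mesenchymal gene. They are the 250 bases before the RefSeq transcription start (GRCm38.p6), on the plus strand at chr17:87635729-87635978 for Epcam, chr2:167537945-167538194 for Snai1 and chr2:13574061-13574310 for Vim. Capitals mark the E-box CAGGTG, or its reverse complement CACCTG, the form that Snail and Zeb proteins bind.
Epcam: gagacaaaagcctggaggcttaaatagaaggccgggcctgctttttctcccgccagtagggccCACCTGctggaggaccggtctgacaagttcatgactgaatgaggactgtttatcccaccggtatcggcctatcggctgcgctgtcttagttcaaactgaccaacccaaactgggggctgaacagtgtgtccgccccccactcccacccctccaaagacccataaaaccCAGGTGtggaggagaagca
Snai1: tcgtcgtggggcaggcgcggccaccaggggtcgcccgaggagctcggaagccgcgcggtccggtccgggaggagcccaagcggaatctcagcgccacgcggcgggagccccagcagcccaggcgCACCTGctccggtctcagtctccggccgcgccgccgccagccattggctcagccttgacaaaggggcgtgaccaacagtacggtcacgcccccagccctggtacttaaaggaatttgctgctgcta
Vim: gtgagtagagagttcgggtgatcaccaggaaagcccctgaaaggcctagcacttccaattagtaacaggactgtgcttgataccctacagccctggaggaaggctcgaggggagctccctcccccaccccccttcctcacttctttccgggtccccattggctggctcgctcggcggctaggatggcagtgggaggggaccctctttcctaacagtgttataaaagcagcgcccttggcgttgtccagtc
The Epcam window holds 2 matches, which begin 187 and 19 bases before the start, and the Snai1 window holds 1, which begins 126 bases before it. The Vim window holds none, nor do those of Twist1 and of the 4 annotated starts of Zeb2. No window is described here for Cdh1, Cdh2, Snai2 and Zeb1. Among all 32851 mouse promoter windows of this length in the same table, 5657 (17.22%) hold the motif on either strand. A match describes the letters of the window and does not show binding.

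All levels are log2 MAS5 signal, a scaled array intensity, and differences are in log2 units. A probe set is called where limma's adjusted p (Benjamini-Hochberg, over all tested probe sets of the chip) is below 0.05. Levels of different probe sets cannot be set against each other. A fold written as "at least" is a lower bound, because a value of the lower day lay under the 20th percentile of the chip, at log2 6.96 on 430A and 7.67 on 430B. In whole cultures, fewer cells of a type and less RNA per cell cannot be told apart.

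Scan times in the array files split the days. On 430A, days 4 and 5 were scanned in 1 group, days 6, 8 and 16 in another, and day 30 with 2 samples of day 25 in the third, so day and scan group cannot be told apart between these groups. On 430B, day 5 replicate 1 was scanned with days 6, 8 and 16, while days 25 and 30 were split over 3 groups, 1 with day 25 replicate 1 and day 30 replicates 2 and 3, 1 with day 25 replicates 2 and 3, and 1 with day 30 replicate 1 alone. The log2 ratio of the 3′ to the 5′ Gapdh control, a measure of RNA integrity, averaged between 2.54 and 2.73 per day on 430A up to day 16, and was 3.84 on day 25 and 3.27 on day 30, where a higher value means fewer 5′ ends. Among the osteoblast markers, Ibsp, the bone sialoprotein gene, and Dmp1, an osteocyte matrix gene, did not pass the filter. Sp7, an osteoblast transcription factor, averaged between 9.67 and 10.58 on all 7 days. Col1a1, the type I collagen gene, rose from 10.31 on day 4 to 15.22 on day 8 in its stronger probe set. Of the 3 tested osteoblast genes, Col1a1 was called higher and Alpl, the alkaline phosphatase gene, lower on day 8 than on day 4. The shares of all tested genes were 7.65% higher and 4.55% lower.

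Vim, Cdh2 and Zeb1 were higher on day 8 than on day 4, by between 2.03-fold and 5.30-fold in the called probe sets whose value is no bound. Cdh2, Twist1 and Zeb1 were lower on day 30 than on day 8. With all samples in the fit, Cdh1, Snai1 and Snai2 passed the test in none of the comparisons. The F test over the 7 days called 8 of the 21 probe sets, in 5 genes (Cdh2, Vim, Twist1, Zeb1 and Zeb2), where 22.4% of all 34965 tested probe sets were called. Several of these probe sets read the same gene and are not independent of each other.

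No member was called on day 5 against day 4 (limma, 4 members at an unadjusted p under 0.05), when 0.00572% of all probe sets were called. On day 6 against day 4 the 3 Vim probe sets were called higher, against 2.34% of all probe sets called higher. On day 8 against day 4, 8 members in 4 genes were called higher and 0 lower, against 5.75% of all probe sets called higher and 3.7% lower. The median difference over the 21 members was 1.02, and over all probe sets it was -0.01. On day 16 against day 4, 5 members were called higher, against 8.69% of all probe sets, and on day 25, 4 were, against 8.3%, with Vim giving 3 of them on both days.

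On day 30 against day 4, 2 members were called lower, Cdh2 and Twist1, and 0 higher, where 8.41% of all probe sets were called lower and 8.98% higher, and the median difference over the members was 0.13. The same probe sets of Cdh2 and Twist1 were called lower on day 30 than on day 16, where 1.14% of all probe sets were. Against day 8, a comparison added after the data had been examined, 6 members were called lower and 1 higher, where 4.19% of all probe sets were called lower and 3.79% higher. The median difference over the members was -1.25, against -0.05 over all probe sets. Between day 8 and day 6, and between day 16 and day 6, which share a scan group on 430A, 0 members were called (limma, 2 members at an unadjusted p under 0.05 in each), with 0.0629% and 6.29% of all probe sets called.

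**Figure D1:**
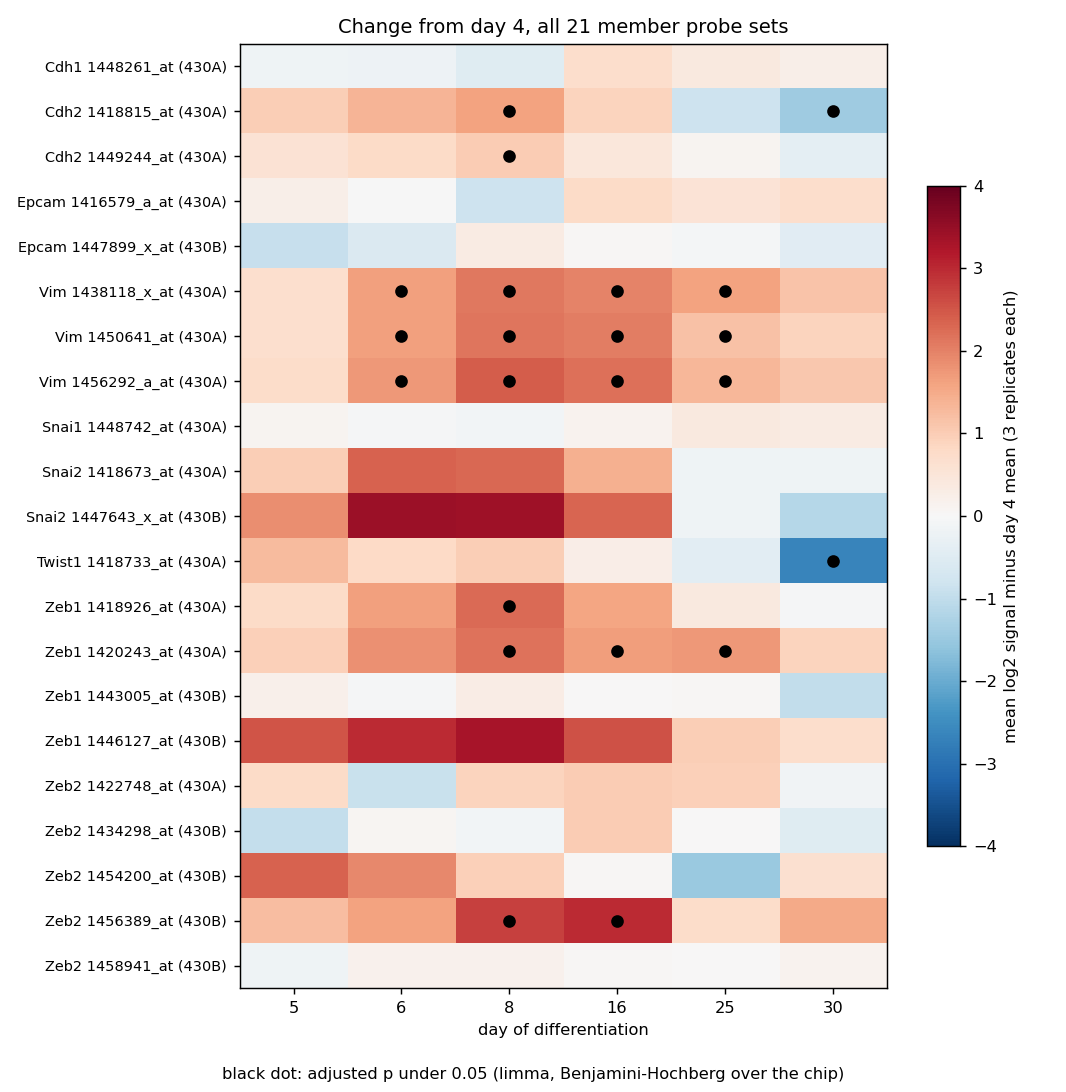
Colour gives the mean log2 signal of 3 replicates minus the day 4 mean for the 21 member probe sets (rows, with chip) on 6 later days (columns), and black dots mark an adjusted p below 0.05. The dots form a block on day 8, with 8 probe sets higher, and on day 30 the 2 dots are on falls in Cdh2 and Twist1.

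These counts moved with single samples. The count on day 8 against day 4 was 5 without day 4 replicate 3, 4 without day 8 replicate 1 and 5 without day 8 replicate 3. The count on day 30 against day 8 was 3 without day 8 replicate 1, without day 8 replicate 2 or without day 30 replicate 3, and 4 without day 30 replicate 1. Both day 30 counts also lie beside the higher Gapdh ratio of that day, and with that ratio as a covariate 4 members were called lower than on day 8 and 0 higher. The part of RNA integrity in these results was not tested further.

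**Figure D2:**
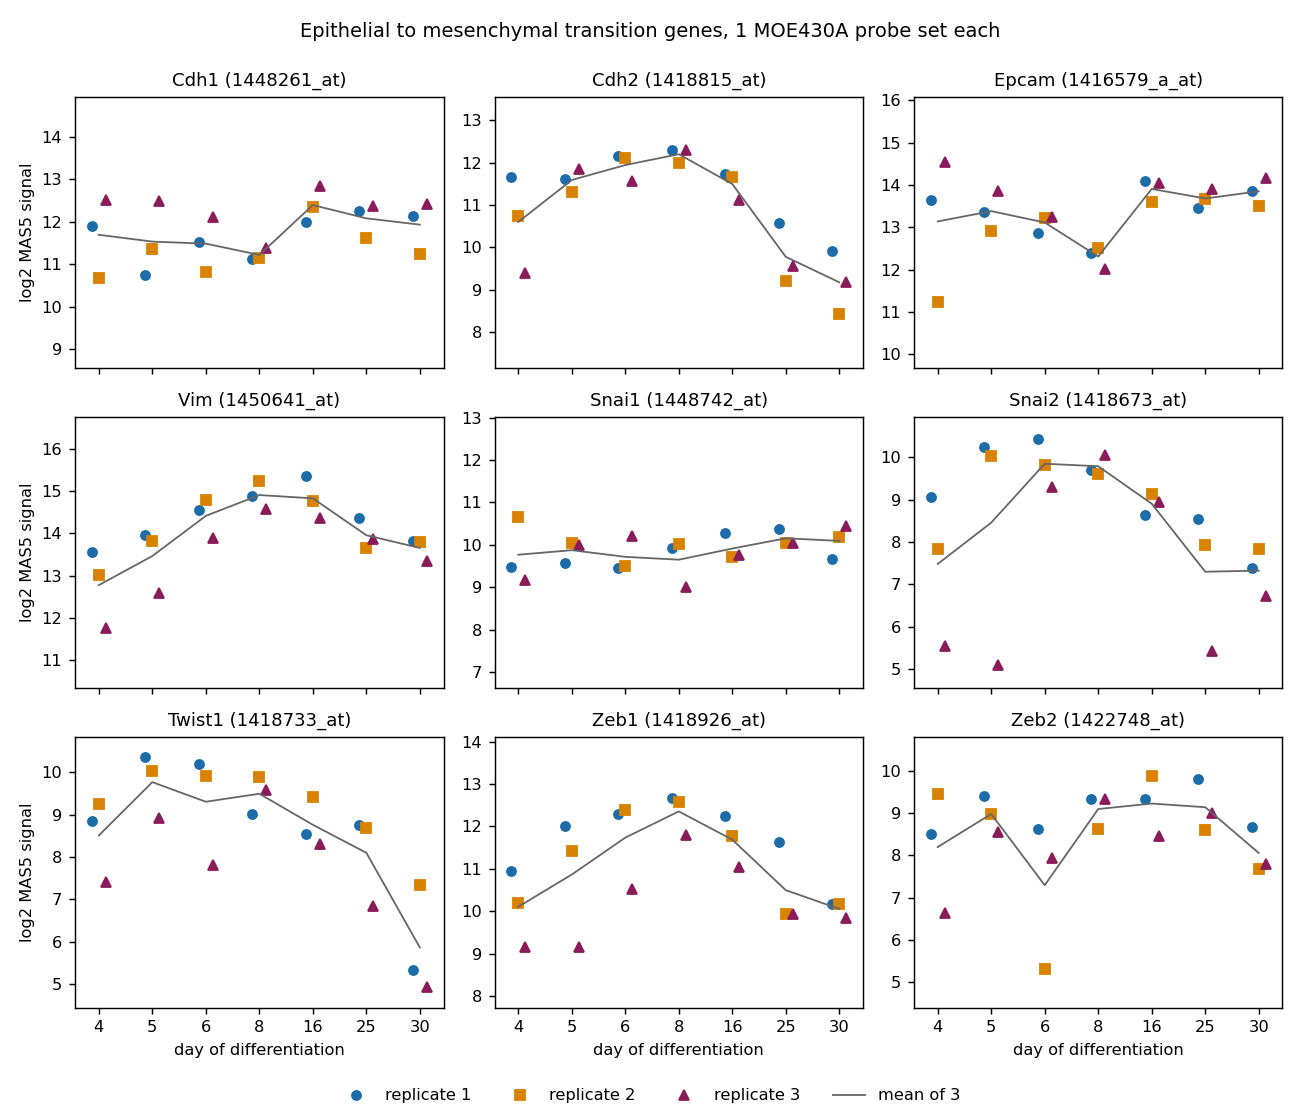
Log2 MAS5 signal (vertical axis, the same span of 6.4 units in each panel) by day of differentiation for 1 MOE430A probe set of each gene, with 1 symbol per replicate and a line through the means of 3. Cdh2, Vim and Zeb1 peak on day 8, Snai1 stays between 9.01 and 10.65, and replicate 3 of days 4 and 5 lies low for Vim, Snai2 and Zeb1.

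Cdh1 encodes E-cadherin, the calcium-dependent adhesion molecule of epithelial sheets and of embryonic stem cell colonies. Its probe set 1448261_at read 11.89, 10.68 and 12.51 on day 4, 10.74, 11.36 and 12.50 on day 5, and 11.51, 10.82 and 12.12 on day 6. It read 11.12, 11.15 and 11.38 on day 8 and 11.99, 12.36 and 12.84 on day 16. It read 12.25, 11.63 and 12.37 on day 25 and 12.14, 11.24 and 12.42 on day 30. Day 8 had the lowest mean, 11.22 ± 0.14 (SD, n = 3), and day 16 the highest, 12.39 ± 0.43, but each day overlapped its neighbours in this order. The difference between day 8 and day 4 was -0.47 (SE 0.45, adjusted p = 0.533) and the F test gave an adjusted p of 0.327. On all 21 arrays Cdh1 lay between percentile 75.9 and percentile 94.1 of the array.

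Epcam encodes the epithelial cell adhesion molecule, which is present on embryonic stem cells and simple epithelia. Probe set 1416579_a_at read 13.64, 11.23 and 14.55 on day 4, 13.37, 12.93 and 13.85 on day 5, and 12.87, 13.22 and 13.25 on day 6. It read 12.41, 12.51 and 12.02 on day 8 and 14.09, 13.59 and 14.04 on day 16. It read 13.46, 13.67 and 13.91 on day 25 and 13.87, 13.51 and 14.17 on day 30. All 3 samples of day 8 lay below every sample of days 5, 6, 16, 25 and 30, and on day 4 replicate 2 was lower still. Epcam was 2.91-fold higher on day 30 than on day 8 (log2 1.54, SE 0.50, adjusted p = 0.0445), a call close to the threshold that was lost on leaving out any of 14 of the 21 samples, among them each sample of days 8 and 30, with adjusted p-values up to 0.143.

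Between day 4 and day 8 the value for Epcam turned on 1 sample. The difference was -0.83 (adjusted p = 0.285) with all samples and -1.78 (adjusted p = 0.00117) without day 4 replicate 2, and without that sample the F test was called as well (adjusted p = 0.000424, against 0.122). Without day 4 replicate 3 the F test was called too (adjusted p = 0.0126), and Epcam was then 1.48 higher on day 16 (adjusted p = 0.0212) and 1.42 higher on day 30 (adjusted p = 0.0229) than on day 4. The second Epcam probe set, 1447899_x_at on 430B, did not follow the first: its day 8 samples, at 14.44, 15.04 and 15.24, gave its highest mean, and it was not called in the F test (adjusted p = 0.35). The suffix x marks probe sets whose probes can also bind other transcripts, and the low day 8 values come from the 430A probe set alone.

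Cdh2 encodes N-cadherin, the adhesion molecule of mesenchyme, neural tissue and heart muscle. Probe set 1418815_at read 11.66, 10.75 and 9.39 on day 4, 11.62, 11.31 and 11.85 on day 5, and 12.15, 12.10 and 11.58 on day 6. It read 12.29, 12.00 and 12.30 on day 8 and 11.72, 11.66 and 11.11 on day 16. It read 10.57, 9.21 and 9.55 on day 25 and 9.91, 8.42 and 9.19 on day 30. The 6 samples of days 25 and 30 lay below all 12 samples of days 5 to 16, and day 4 spanned both ranges. It was the member with the smallest p in the F test (adjusted p = 8.12e-05).

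Cdh2 was 3.03-fold higher on day 8 than on day 4 (log2 1.60, SE 0.45, adjusted p = 0.018), and by day 30 it was 8.14-fold lower than on day 8 (log2 -3.02, SE 0.45, adjusted p = 0.00012). Its second probe set, 1449244_at, moved the same way over a smaller span, 1.02 higher on day 8 than on day 4 (adjusted p = 0.0361) and then -1.41 on day 30 against day 8 (adjusted p = 0.00583). Both late falls were called on leaving out each of the 21 samples in turn and with the Gapdh ratio as a covariate (-2.80, adjusted p = 0.000894, for the first). The early rise was less firm: without day 4 replicate 3 it was 1.00 in the first probe set (adjusted p = 0.113) and 0.67 in the second (adjusted p = 0.186), and the first also missed the threshold on omission of day 8 replicate 1, at an adjusted p of 0.0675, or replicate 3, at 0.0539, and the call of the second without any sample of day 8. Most of the late fall came after day 16, with a difference of -2.32 on day 30 (5.00-fold, SE 0.45, adjusted p = 0.00769), which missed the threshold without day 30 replicate 2 (-1.95, adjusted p = 0.0596) and with the Gapdh ratio as a covariate (-2.03, adjusted p = 0.0627).

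Day 30 was also below day 4 in the first Cdh2 probe set (log2 -1.42, SE 0.45, adjusted p = 0.021), although day 4 replicate 3, at 9.39, lay among the day 30 samples. It missed the threshold on omission of day 4 replicate 1 (-0.89, adjusted p = 0.139), of day 4 replicate 2 (0.0599) and of day 30 replicate 2 (-1.05, adjusted p = 0.123) and with the Gapdh ratio as a covariate (-1.16, adjusted p = 0.101), and without day 4 replicate 3 the difference was -2.03. Cardiac muscle markers were high on day 8 as well. The summed signal of the 8 measured markers lay between 4014 and 8173 on day 4, between 54976 and 121425 on day 8 and between 8064 and 11041 on day 30. On day 5 the same sum was 4691 to 8246 while Cdh2 was already at 11.31 or above, and on day 6 it was 5301 in replicate 3 and at least 69466 in the other replicates, with Cdh2 at 11.58 or above in all of them. On day 16 the sum was 23222, 35217 and 6006 in replicates 1 to 3, with Cdh2 at 11.72, 11.66 and 11.11. Of the 8 cardiac genes, 7 were called higher on day 8 than on day 4, where 7.65% of all tested genes were. On day 30 against day 8, 6 were called lower, where 5.53% of all tested genes were. The part of the cardiac genes in the Cdh2 result was not tested.

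Vim encodes vimentin, the main intermediate filament of mesenchymal cells. Probe set 1450641_at read 13.57, 13.01 and 11.76 on day 4, 13.97, 13.83 and 12.60 on day 5, and 14.56, 14.79 and 13.89 on day 6. It read 14.89, 15.24 and 14.58 on day 8 and 15.36, 14.77 and 14.35 on day 16. It read 14.35, 13.65 and 13.86 on day 25 and 13.82, 13.81 and 13.34 on day 30. Every sample of days 6, 8, 16 and 25 lay above every sample of day 4, and the highest means, on days 8 and 16, overlapped.

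Vim was 4.37-fold higher on day 8 than on day 4 (log2 2.13, SE 0.40, adjusted p = 0.00148) and 4.14-fold higher on day 16 (log2 2.05, adjusted p = 0.000851). The other Vim probe sets, 1438118_x_at and 1456292_a_at, rose by 2.12 (adjusted p = 0.00439) and 2.41 (adjusted p = 0.00241). The rises on days 8 and 16 were called in all 3 probe sets on leaving out each sample in turn, and the lowest value, for 1438118_x_at on day 16, was 1.41. The smaller rises were less firm. On day 6 they were between 1.63 and 1.74 (adjusted p from 0.0198 to 0.0388), and none was called without day 4 replicate 3, day 6 replicate 1 or day 6 replicate 2. On day 25 they were between 1.18 and 1.62 (adjusted p from 0.0145 to 0.0474), and none was called without day 4 replicate 3. With the Gapdh ratio, which was highest on day 25, as a covariate, 1450641_at was at 1.78 (adjusted p = 0.0375), and the calls of the other probe sets were lost (adjusted p = 0.0831 and 0.142). With array medians centred 1450641_at and 1456292_a_at were lost (adjusted p = 0.0604 and 0.0798). On day 30 Vim was 2.38-fold lower than on day 8 in the first probe set (log2 -1.25, adjusted p = 0.0438), a call lost on omission of any 1 sample of days 8 and 30 and, in all, of 9 of the 21, and with the Gapdh ratio as a covariate (-0.98, adjusted p = 0.157). Against day 4, day 30 was not called, except in 1438118_x_at and 1456292_a_at without day 5 replicate 3 (adjusted p = 0.0237 and 0.0347), in 1438118_x_at without day 4 replicate 2 (0.025) and in 1450641_at without day 4 replicate 1 (0.0274). All 3 Vim probe sets were called higher on day 30 than on day 4 with the scanner record's sample number as a block (adjusted p from 0.0188 to 0.0225). The same 3 were called higher with the replicate number as a block.

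Snai1 encodes Snail, the zinc finger repressor needed for gastrulation in the mouse. Its probe set 1448742_at read 9.49, 10.65 and 9.17 on day 4, 9.58, 10.04 and 10.00 on day 5, and 9.46, 9.49 and 10.20 on day 6. It read 9.91, 10.02 and 9.01 on day 8 and 10.27, 9.70 and 9.77 on day 16. It read 10.37, 10.04 and 10.05 on day 25 and 9.66, 10.18 and 10.43 on day 30. The day means spanned 9.65 to 10.15, all days overlapped their neighbours in that order, and the F test gave an adjusted p of 0.81. The difference between day 8 and day 4 was -0.12 (SE 0.36, adjusted p = 0.872).

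Snai2 encodes Slug, the related repressor found in mesoderm and neural crest. Probe set 1418673_at on 430A read 9.06, 7.85 and 5.54 on day 4, 10.25, 10.03 and 5.10 on day 5, and 10.43, 9.82 and 9.29 on day 6. It read 9.69, 9.62 and 10.06 on day 8 and 8.64, 9.12 and 8.95 on day 16. It read 8.54, 7.93 and 5.42 on day 25 and 7.39, 7.84 and 6.74 on day 30. Its samples were high on days 6, 8 and 16 throughout, while days 4 and 5 held high and low samples side by side.

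The Snai2 probe set of the other chip, 1447643_x_at, gave the same picture over a wider span. It read 14.64, 12.77 and 9.83 on day 4, 17.07, 16.41 and 9.37 on day 5, and 16.01, 16.00 and 15.51 on day 6. It read 15.61, 15.32 and 16.48 on day 8 and 14.41, 15.15 and 14.67 on day 16. It read 13.26, 10.77 and 12.74 on day 25 and 12.22, 10.15 and 11.44 on day 30. The samples with the lowest reading on this chip, day 5 replicate 3 and day 4 replicate 3, also had 2 of the 3 lowest on the other, so these RNA samples read low on both chips. The third low sample on 430A, day 25 replicate 3 at 5.42, read 12.74 on 430B.

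**Figure D3:**
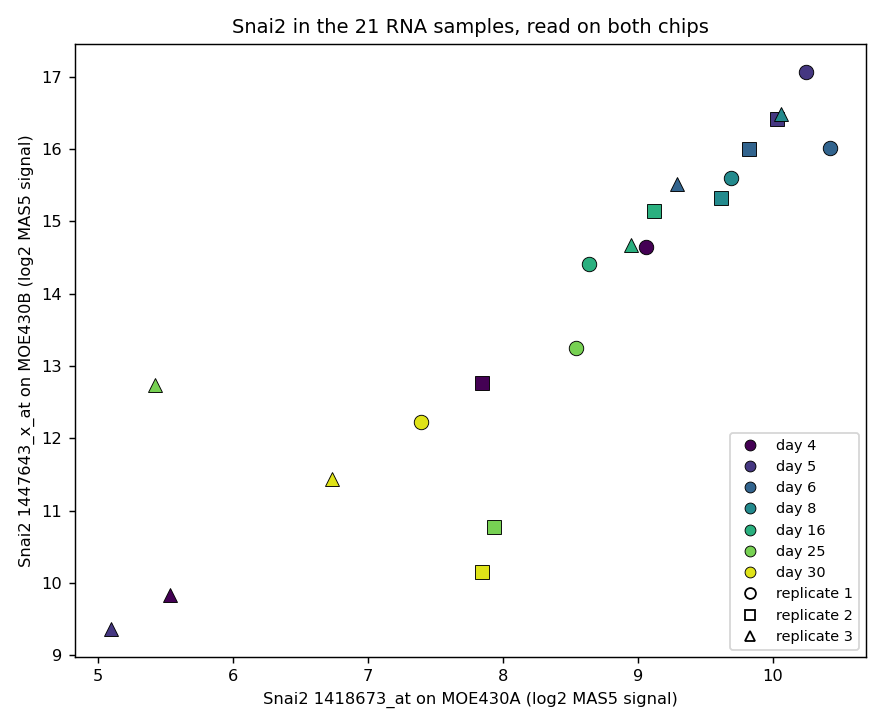
Snai2 in the 21 RNA samples, with log2 MAS5 signal of 1418673_at on MOE430A on the horizontal axis and of 1447643_x_at on MOE430B on the vertical axis, colour for day and shape for replicate. Replicate 3 of days 4 and 5 sits in the lower left corner, apart from the other samples of its day, and days 6, 8 and 16 sit in the upper right.

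Despite these spans Snai2 was not called in any comparison. On day 8 against day 4 it was 2.31 higher on 430A (SE 1.04, adjusted p = 0.138) and 3.39 higher on 430B (SE 1.27, adjusted p = 0.174), and on day 30 against day 8 it was -2.46 (adjusted p = 0.126) and -4.53 (adjusted p = 0.0529). The calls turned on single samples of days outside these comparisons, day 5 replicate 3 above all. Without day 5 replicate 3 the differences stayed the same, and the adjusted p-values became 0.0345 and 0.0129 for day 8 against day 4 and 0.0279 and 0.00106 for day 30 against day 8. The F test was then called on both chips, with adjusted p-values of 0.00668 and 0.000114, and the 430B probe set was 4.33 higher on day 5 than on day 4 (adjusted p = 0.0409). The 430B fall from day 8 to day 30 also passed on omission of day 4 replicate 1 or 3 or day 5 replicate 1 or 2, at adjusted p-values between 0.0315 and 0.0448. The 430B F test also passed on omission of day 4 replicate 1 or day 5 replicate 1, at 0.0283 and 0.0306. With the scan group as a fixed block, which rests on the day 5 samples that link the groups, the 430B difference between day 8 and day 4 was -0.79 (adjusted p = 0.998).

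The Snai2 samples that were low on days 4 and 5 were those with most pluripotent cell transcripts of their day. The summed signal of 7 pluripotency genes on 430A was 133328 in day 4 replicate 3, against 21579 and 83848 in the other samples of that day, and 59716 in day 5 replicate 3, against 4018 and 16077. In both samples, and in day 6 replicate 3 (23548, against 4074 and 9486), Vim (1450641_at), Zeb1 (1418926_at) and Twist1 had their lowest value of the day, and Cdh1 and Epcam (1416579_a_at) their highest. Other member probe sets went the other way. Both of Cdh2 had their highest value of day 5 in replicate 3, at 11.85 and 10.91. Zeb1 1420243_at and Zeb2 1456389_at had their highest of day 4 in replicate 3, at 8.18 and 9.40. Of the 8 pluripotency genes, 5 were called lower on day 8 than on day 4, where 4.55% of all tested genes were. The part of the pluripotency genes in the rises of the members was not tested.

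Twist1 encodes a basic helix-loop-helix factor of mesoderm and cranial mesenchyme. Probe set 1418733_at read 8.86, 9.26 and 7.41 on day 4, 10.35, 10.04 and 8.92 on day 5, and 10.19, 9.91 and 7.82 on day 6. It read 9.02, 9.88 and 9.59 on day 8 and 8.55, 9.42 and 8.32 on day 16. It read 8.76, 8.69 and 6.85 on day 25 and 5.33, 7.33 and 4.94 on day 30. Its highest mean came on day 5, but this day overlapped days 8 and 6, next in order, and only day 30 lay apart from days 4 to 16.

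By day 30 Twist1 had fallen at least 5.33-fold from day 8 (fitted log2 difference -3.63, SE 0.71, adjusted p = 0.00159), at least 2.69-fold from day 4 (adjusted p = 0.00782) and at least 3.21-fold from day 16 (adjusted p = 0.0282). The falls from days 8 and 4 were called on leaving out each sample in turn and with the Gapdh ratio as a covariate, with day 30 replicate 2 as the mildest of the low samples (-4.36 and -3.38 without it). The fall from day 16 was lost without either of replicates 1 and 2 of day 16 or 1 and 3 of day 30 (adjusted p up to 0.142), was -3.63 without day 30 replicate 2, and was lost with the Gapdh ratio as a covariate (adjusted p = 0.109).

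Zeb1 encodes a zinc finger and homeodomain repressor of Cdh1. Probe set 1418926_at read 10.94, 10.20 and 9.16 on day 4, 12.02, 11.41 and 9.16 on day 5, and 12.30, 12.39 and 10.52 on day 6. It read 12.68, 12.58 and 11.80 on day 8 and 12.25, 11.79 and 11.04 on day 16. It read 11.63, 9.93 and 9.92 on day 25 and 10.16, 10.17 and 9.84 on day 30. All samples of days 8 and 16 lay above all of days 4 and 30, and days 5, 6 and 25 spanned the gap.

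Zeb1 was 4.77-fold higher on day 8 than on day 4 (log2 2.25, SE 0.64, adjusted p = 0.0192) and 4.93-fold lower on day 30 than on day 8 (log2 -2.30, SE 0.64, adjusted p = 0.0187). The rise missed the threshold on omission of day 4 replicate 3 (1.78, adjusted p = 0.092) and of replicates 1 and 2 of day 8, at adjusted p-values of 0.0807 and 0.0596. The fall did so on omission of replicates 1 and 2 of day 8, at 0.0695 and 0.0653, and of day 30 replicate 3, at 0.0626, and with the Gapdh ratio as a covariate (-2.16, adjusted p = 0.0568). A dimmer 430A probe set, 1420243_at, rose at least 3.11-fold between days 4 and 8 (fitted log2 difference 2.17, adjusted p = 0.0169), which failed on omission of day 4 replicate 2 (1.37, adjusted p = 0.103) and of day 8 replicate 3, at 0.0585, and became 2.78 without day 4 replicate 3. It was also called higher on days 16 and 25 (at least 2.17-fold, adjusted p = 0.0472, and at least 2.29-fold, adjusted p = 0.0374). The first of these was lost without any of 15 of the 21 samples, the second without day 4 replicate 2 or day 25 replicate 1 or 3, and both with array medians centred.

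On 430B, Zeb1 probe set 1446127_at ranged widest, from 5.44 to 11.27. Its day 4 samples, at 10.19, 6.51 and 5.44, did not lie together, and its difference of 3.31 between day 8 and day 4 was called only without day 4 replicate 1 (4.71, adjusted p = 0.00932, against 0.105). The other, 1443005_at, lay between 11.02 and 11.93 up to day 25 and read 9.90, 11.25 and 9.91 on day 30. It was called lower on day 30 than on day 8 (log2 -1.31, adjusted p = 0.0224), a call that was lost without replicates 1 or 2 of day 8 or 1 or 3 of day 30 (adjusted p from 0.0994 to 0.115), and it was not called on day 8 against day 4.

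Zeb2 encodes the second Zeb repressor, a factor of neural crest and hematopoietic cells as well as of mesenchyme. It has 5 probe sets, of which 1456389_at on 430B was called. That probe set read 9.05, 6.82 and 9.40 on day 4, 9.79, 9.97 and 9.25 on day 5, and 10.22, 9.77 and 10.09 on day 6. It read 11.31, 11.06 and 11.13 on day 8 and 12.25, 11.29 and 10.67 on day 16. It read 9.71, 7.71 and 10.07 on day 25 and 9.46, 9.72 and 10.60 on day 30. Days 8 and 16 lay above every sample of the other days.

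In this probe set the rise of Zeb2 from day 4 was at least 5.49-fold by day 8 (fitted log2 difference 2.74, SE 0.63, adjusted p = 0.0149) and at least 6.48-fold by day 16, with an adjusted p of 0.00412. The first call failed on omission of day 4 replicate 2 (1.94, adjusted p = 0.102) and of day 8 replicate 1, where the adjusted p was 0.0678, and the second held without each sample (2.18 without day 4 replicate 2). With the scan group as a fixed block the differences were 2.56 (adjusted p = 0.914) and 2.80 (adjusted p = 0.616), so the sizes stayed close to the others and the calls were lost. The remaining 4 probe sets, 1 on 430A and 3 on 430B, were called in no comparison. The 430A probe set 1422748_at ranged from 5.32 to 9.88, and its day 6 samples alone read 8.61, 5.32 and 7.95. Macrophage markers were present beside Zeb2. Their summed signal was 4210 to 5343 on day 4, 7923 to 26865 on day 8 and 13212 to 35653 on day 16. The macrophage sum was still 19013 to 44553 at day 25 and 17295 to 21624 at day 30. Zeb2 1456389_at had by then left its day 16 mean of 11.40, with means of 9.16 (day 25) and 9.93 (day 30). On day 8 against day 4, 4 of the 6 macrophage markers were called higher, where 7.65% of all tested genes were. The part of these markers in the Zeb2 result was not tested.

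The other genes of the programme were counted from lists of the members' known partners and targets, 1 probe set a gene, against 15600 genes tested in all. Of 30 other mesenchymal genes, 19 were called higher on day 8 than on day 4 and 1, Thy1, lower, where 7.65% of all genes were called higher and 4.55% lower. The list's median difference was 2.71, and that of all genes was 0.02. The fibrillar collagen genes Col3a1 and Col1a2 were 86.0-fold and 38.5-fold higher, Postn, for the matrix protein periostin, was 58.6-fold higher, and the integrin gene Itgb3 at least 30.8-fold (adjusted p from 2.05e-08 to 0.00197). These 4 calls were kept without each sample, and the sizes leaned on day 4 replicate 1, without which the log2 differences were 7.78 for Col3a1, 6.65 for Postn and 5.94 for Col1a2, and on day 4 replicate 2, without which Col3a1 was 5.58.

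By day 30, against day 8, the same list had 3 genes called higher and 6 lower, where 5.34% of all genes were called higher and 5.53% lower. Postn (24.8-fold lower) and the smooth muscle cytoskeleton genes Tagln (8.67-fold), Acta2 (7.24-fold) and Cnn1 (6.61-fold) fell most (adjusted p from 0.000128 to 0.0292), of which Acta2 was lost without any sample of days 8 and 30. Those called higher were Timp1, Lox and Itgav, a protease inhibitor, a collagen crosslinking enzyme and an integrin subunit, and the count was 1 without day 8 replicate 3 and with the Gapdh ratio as a covariate. Pdgfrb and Itgb3, for a growth factor receptor and an integrin subunit, were the other genes called lower. Against day 4, 16 of the 30 genes, 5 fibrillar collagen genes among them, were still called higher on day 30 and 1, Cnn1, lower, where 12.1% of all genes were called higher and 10.4% lower.

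On day 8 against day 4, 7.65% of all genes were called higher and 4.55% lower. Of 38 other epithelial genes, 6 were called higher and 8 lower, with a median of -0.00. Among the lower were the tight junction gene Tjp3 (at least 3.49-fold, adjusted p = 0.00311) and the membrane protease gene Prss8 (4.49-fold, adjusted p = 0.00307) and Rab25, a gene of apical recycling (4.20-fold, adjusted p = 0.0171), and among the higher the desmosomal cadherin gene Dsc2 (5.10-fold, adjusted p = 0.000902). Tjp3 was at -1.68 without day 8 replicate 1, Prss8 at -2.87 without day 8 replicate 2, and Rab25 missed the threshold without day 4 replicate 2 or either of replicates 1 and 2 of day 8, with adjusted p-values up to 0.0993, and the count of higher genes was 2 without day 4 replicate 3. On day 30 against day 8, 5.34% of all genes were called higher and 5.53% lower. Of the 38, 18 were called higher and 1, the desmosomal gene Pkp2, lower, with a median of 1.19. The largest rises were in Mal2, a gene of apical transport (at least 3.86-fold), the laminin gene Lamb3 (at least 5.96-fold), Rab25 (7.11-fold) and the keratin gene Krt19 (6.38-fold), with adjusted p from 4.65e-05 to 0.00689. Lamb3 was at 2.21 and Rab25 at 3.52 without day 8 replicate 3, and all 4 were called without each sample.

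The epithelial list was already high by day 16. Against day 6, in the same scan group, 14 of the 38 were called higher and 1 lower on day 16, with a median of 0.84, where 5.59% of all genes were called higher and 3.47% lower. Krt7 was 10.6-fold higher (adjusted p = 1.31e-06) and Krt19 6.98-fold (adjusted p = 3.8e-05). In the same comparison 17 of the 30 other mesenchymal genes were called higher and 0 lower, with a median of 1.52. Without day 16 replicate 1 that count of higher genes was 8. Between day 16 and day 30 the median difference was -0.06 for the epithelial list and -1.33 for the mesenchymal list.

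Markers of other epithelial cells were high on the same days. The stratified epithelium genes had sums of 564 to 1088 on day 8, 4383 to 41598 on day 16 and 4491 to 15814 on day 30. On day 16, 3 of the 6 (Krt5, Krt14 and Krt15) were called higher than on day 6, and on day 30, 4 (with Krt17) were called higher than on day 8. The shares of all genes called higher were 5.59% and 5.34%. The parietal endoderm genes, which make basement membrane, had a summed signal of 67667 to 88569 on day 8, 111006 to 188765 on day 16 and 421627 to 562368 on day 30. Of these 12 parietal endoderm genes, 6 were called higher on day 16 than on day 6, and 10 on day 30 than on day 8, against the same shares. On day 30 against day 16, 8 of these genes were called higher. Of all 34965 tested probe sets, in which a gene can have several, 227 were called higher. The part of either cell type in the values of the epithelial list and of Epcam was not tested.

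**Figure D4:**
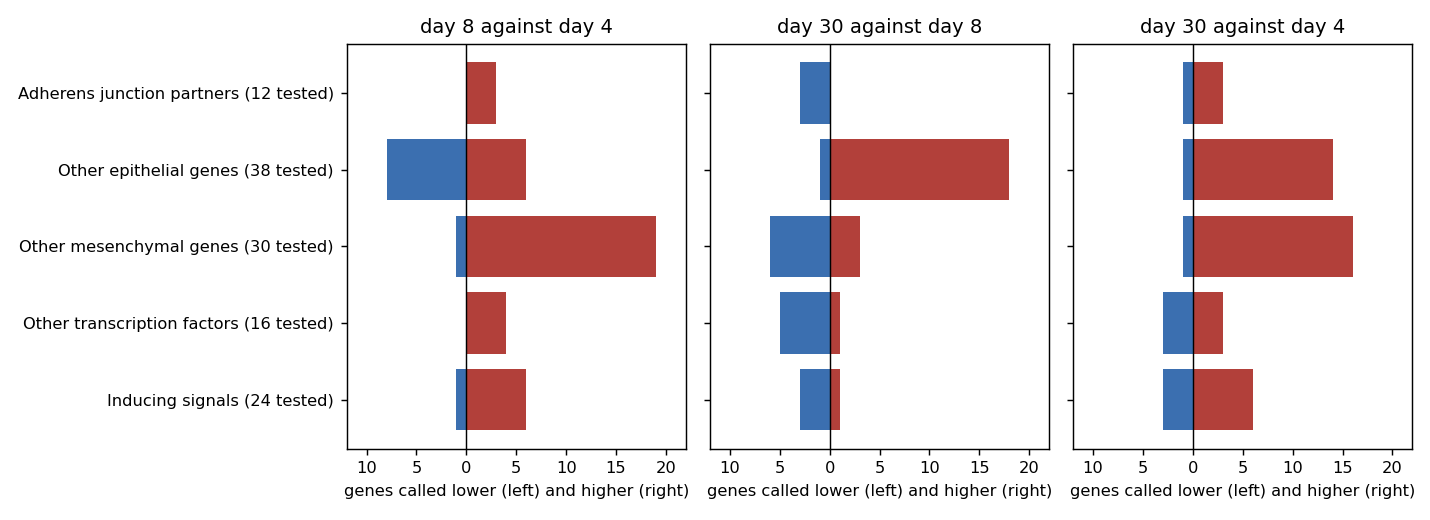
Number of genes called higher (right of 0) and lower (left of 0) in 5 lists of the programme without the members, for day 8 against day 4, day 30 against day 8 and day 30 against day 4. The mesenchymal bar points right on day 8 (19 of 30), and the epithelial bar does so on day 30 against day 8 (18 of 38).

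Of 16 other transcription factors of the programme, 4 were called higher on day 8 than on day 4 and 0 lower (Prrx1, Id2, Sox4 and Twist2). Of all genes, 7.65% were called higher and 4.55% lower. Id2, which restrains basic helix-loop-helix factors, was 6.09-fold higher (adjusted p = 0.00228), Sox4 3.22-fold (adjusted p = 0.0063) and Twist2, the close relative of Twist1, 3.06-fold (adjusted p = 0.00717). Prrx1, a mesenchymal homeobox gene, was at least 3.29-fold higher (adjusted p = 0.0157), which failed on omission of day 4 replicate 2 and of day 8 replicate 1, at adjusted p-values of 0.0898 and 0.0646, and its log2 difference was 3.85 without day 4 replicate 1. Against day 8, on day 30, 5 (Foxc2, Prrx2, Tcf3, Tcf4 and Twist2) were called lower and 1 higher. Of all genes, 5.53% were called lower and 5.34% higher. Twist2 (3.05-fold, adjusted p = 0.00785) and Prrx2 (3.33-fold, adjusted p = 0.00723) fell, and Id4 was 2.47-fold higher (adjusted p = 0.0111). The count of lower genes was 2 or 3 without any sample of days 8 and 30 other than day 8 replicate 3, and 2 with the Gapdh ratio as a covariate.

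Of 24 genes for the inducing ligands, receptors and signal carriers, 6 were called higher on day 8 than on day 4 and 1 lower. The shares of all genes were 7.65% higher and 4.55% lower. The receptor genes Tgfbr1 and Tgfbr2 of the TGF-beta pathway, the best known inducer of the transition, were higher, Tgfbr1 by 3.57-fold (adjusted p = 0.00233) and Tgfbr2 by 2.90-fold (adjusted p = 0.00247). The ligand genes Tgfb2 (5.37-fold, adjusted p = 0.0187) and Tgfb3 (at least 4.89-fold, adjusted p = 0.00807) were higher too, and Tgfb2 missed the threshold on omission of day 4 replicate 3 (1.51, adjusted p = 0.118) and of replicates 1 and 2 of day 8, at 0.059 and 0.0656. Tgfb3 did so on omission of day 8 replicate 1, at 0.054, with a log2 difference of 4.16 without day 4 replicate 1. The 1 lower gene was Smad4, and the count of lower genes was 0 without replicates 1 or 2 of either day. On day 30 against day 8, Bmp4 (5.81-fold, adjusted p = 0.0083), Tgfb2 (5.70-fold, adjusted p = 0.0168) and the receptor gene Notch1 (5.21-fold, adjusted p = 0.000255) fell and Tgfbr2 rose by 3.37-fold (adjusted p = 0.000735). Of these, Tgfb2 missed the threshold on omission of day 8 replicate 2, at an adjusted p of 0.0683, and of replicates 1 and 2 of day 30, at 0.0543 in each.

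Of 12 partners of the adherens junction, 3 were called higher on day 8 than on day 4, where 7.65% of all genes were. Cdh11, the cadherin of loose mesenchyme and osteoblasts, was 6.16-fold higher (adjusted p = 0.00533, log2 1.64 without day 4 replicate 3), Vcl, for vinculin, 2.65-fold (adjusted p = 0.00182) and Cdh5, the endothelial cadherin, 2.18-fold (adjusted p = 0.00748). On day 30 Cdh11 was 9.58-fold below day 8 (adjusted p = 0.000976), and Cdh3 and Nectin3 were called lower as well, a count of 3 that was 1 without day 8 replicate 3 or day 30 replicate 3. Of all genes, 5.53% were called lower on day 30 than on day 8.

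The genes whose signal was most like a member's were named by Pearson correlation over the 21 arrays of 430A, among 7652 probe sets, as a description without a test. The arrays share the day course, the scan groups and the sample differences within a day given above. Nearest to Cdh2 were the imprinted gene Mest (r = 0.93), the TGF-beta pseudoreceptor gene Bambi (r = 0.93) and Cdh11 (r = 0.91). Nearest to Vim were Emilin1 (r = 0.95), Irs1 (r = 0.95) and Lpp (r = 0.94), and nearest to Zeb1 the proteoglycan gene Vcan (r = 0.95) and the imprinted growth regulators Dlk1 (r = 0.93) and Cdkn1c (r = 0.93). For Twist1 the highest values were lower, at 0.86 for Marcksl1, 0.86 for Gnb4 and 0.82 for Tdrd3.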

How the data were processed

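Total RNA of 21 samples (3 replicates on each of 7 days) was measured on the Affymetrix chips MOE430A and MOE430B, 42 arrays in all. The authors deposited linear signal without detection calls, made with MAS5 per the submitters' processing notes. Its version is not given in the sources used here. On each array the deposited signal had a mean of 1500 once 2% of values at either end were set aside, as checked in the files. The text records that come with each array gave scan times and sample numbers. Array medians lay between 476.0 and 684.3 on 430A and between 793.7 and 905.2 on 430B. Arrays carry no read depth, so the number of arrays limits the precision.

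No offset was added before taking log2. Tests were limited to probe sets that exceeded the 40th percentile of the array on 3 or more arrays, which left 34965 probe sets after the 64 controls of each chip were removed. Each chip was fitted by itself with limma 3.58.1 (R 4.3.3), with day as a factor over 21 arrays and eBayes with a trend. Adjusted p-values are two-sided, after Benjamini and Hochberg, over the tested probe sets of a chip in a comparison. For a lower bound, values of the lower day under the 20th percentile were raised to it. Each gene of a list is read by 1 probe set, the tested one of highest mean on 430A where there is any, and otherwise on 430B. All member probe sets are named. From a list, up to 4 genes with the largest change past the threshold are named, with any further gene of a count of 5 or fewer chosen after its values were seen. For each member gene called in the F test in its 430A probe set, the 3 most alike genes are named. The members, lists and comparisons were chosen with earlier results of these data known. The fit was tested on simulated arrays with known log2 changes on day 30 against day 4. On each chip 200 probe sets were changed, with normally distributed noise, whereas 6082 of 34965 were called in the data. The adjusted p depends on the share of probe sets that change, so the rates below hold for the simulated setting and may differ in these data. Of changes of 2, 74% were recovered on 430A and 38% on 430B, and of -2, 64% and 34%. Of changes of 4, 94% and 80% were recovered, and of 1, 32% and 8%. A probe set that was not called is therefore not shown to be unchanged.

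In the scanner records replicate 3 of days 8 and 16 carries the number 4. Alternatives were other filters, an offset of 64, 2 other scalings, eBayes without trend, replicate, scan and Gapdh terms, and each sample left out. A block by the scanner record's number and the comparison of day 30 with day 8 were added after the data were examined. Promoter sequences are RefSeq's.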

Additional observations from a re-analysis of the deposited data

How the results depend on the processing

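Of 39 calls among the member probe sets, none changed direction under any alternative run. With the scan group as a random block all 39 were kept, against 38 with the replicate block, 37 with an offset of 64, 36 with quantile normalization, 34 without the filter, 33 with array medians centred, 29 without the trend and 27 with the Gapdh ratio as a covariate. The random block had a correlation of -0.03 on 430A and 0.03 on 430B. It is therefore close to the main fit and cannot separate scan group from day. With the scan group as a fixed block 2 of the calls could be fitted, and both were lost. Leaving out each sample in turn kept 714 of 819 calls. Counts of called members moved by more than 1.5 times as follows, and the cause was not tested. On day 6 against day 4 (3) the count was 1 without the trend, 5 with the replicate block and 6 with the block by scanner record number. On day 25 against day 4 (4) it was 1 with medians centred, 2 without the trend and 1 with the Gapdh ratio. On day 30 against day 4 (2) it was 6 with the replicate block and 5 with the scanner record block, with the 3 Vim probe sets higher under both and the others lower, and 1 with the Gapdh ratio. On day 16 against day 6 (0) it was 1 with the scanner record block. On day 30 against day 16 (2) it was 1 with the offset, 4 with the replicate block and 0 with the Gapdh ratio. On day 30 against day 8 (7) it was 4 without the trend and 4 with the Gapdh ratio. The replicate block made no such move elsewhere. Same-numbered samples were not taken as pairs, since 16 of 63 pairs on 430A and 1 of 63 on 430B had deviations correlated above 0.1. On 430A 16 of 21 samples and on 430B 13 of 21 deviated most like samples of their own number, a hint from the data and not the design.

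Leaving out 1 sample at a time gave counts from 6 to 11 for the F test, 0 to 1 for day 5 against day 4, 0 to 6 for day 6, 4 to 10 for day 8, 4 to 7 for day 16, 1 to 4 for day 25 and 2 to 4 for day 30, all against day 4. It gave 0 to 0 for day 8 and 0 to 1 for day 16 against day 6, 1 to 3 for day 30 against day 16 and 3 to 10 for day 30 against day 8. Centring the medians moved the median of all 430A probe sets by over 0.1 on day 16 (to -0.11) and day 25 (to -0.14) against day 4. A fixed block for scan group could be fitted only where groups share days.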
